A study of Mus musculus with 4 samples.

Results

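The genes for voltage-gated sodium and calcium channels and for potassium channels were examined in the telencephalon, the forebrain region from which the cortex and basal ganglia develop, of 152F7 and wild-type mouse embryos. They were chosen by gene symbol (Scn, Cacn or Kcn followed by the family letter or number, without Kcne2) among spots with a value on all 4 arrays. These were 50 genes on 71 spots, of 11791 genes on the array that were measured in this way: 5 sodium channel genes, 12 calcium channel genes and 33 potassium channel genes. The 152F7 mice are transgenic for a yeast artificial chromosome that holds human DNA of the Down syndrome region, the kinase gene DYRK1A included, and the wild-type mice lack it. Embryos of both genotypes had the FVB background and were taken at stage E12.5, and no treatment is given in the labels. RNA of 1 pool per genotype was labelled with Cy5 or Cy3 and hybridised together on 4 two-colour Agilent whole mouse genome arrays, 2 with 152F7 in Cy5 and 2 with wild type in Cy5. Each value is a deposited log ratio of the 2 pools, read here as log2.

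Voltage-gated sodium channels carry the upstroke of the action potential, voltage-gated calcium channels turn depolarisation into calcium entry and transmitter release, and potassium channels set the resting potential and end the spike. In each family a pore-forming subunit makes the channel, and smaller auxiliary subunits change its trafficking and gating. At this stage most telencephalic cells are dividing progenitors, and the first postmitotic neurons are only beginning to express channels of excitable cells. In bulk RNA, fewer cells of a type and less RNA per cell cannot be told apart.

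From the sex-linked genes, each of the 4 arrays was taken to have the same pool on top of its deposited ratio. Xist, which is transcribed from the inactive X of females, had -3.53 and -3.38 with 152F7 in Cy5, against -3.33 and -3.27 with wild type in Cy5, and the Y-linked Eif2s3y had 2.39 and 2.37, against 1.77 and 1.87. Both kept their sign when the dyes were exchanged, so the pools differed in sex-linked RNA and the ratio was not simply Cy5 over Cy3. Dyrk1a, the mouse counterpart of the kinase gene on the transgene, split by orientation instead, with 0.13 and 0.13 for 152F7 in Cy5, against -0.14 and -0.0097 for wild type in Cy5, and had 0.10 in 152F7 over wild type if the arrays with wild type in Cy5 are turned. Whether its probes read the human transcript is not known here. Neither the labels nor the values say which genotype is on top of the ratio. The text therefore speaks of the numerator pool and the denominator pool, and a positive log2 ratio means a higher level in the numerator pool. With 1 pool per genotype there is no test across genotypes and no p-value. Errors are SDs over the 4 technical arrays, which leave out the spread between embryos and pools. These SDs include any difference between the dye orientations, which the mean over both orientations averages out. If the values were instead Cy5 over Cy3, those arrays on which wild type carried Cy5 would have to be turned. Xist and Eif2s3y would then have opposite signs in the different orientations, though the same pools were hybridised on all 4 arrays. The counts and the values of the called genes are given in that turned reading as well, for comparison.

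The differences between the pools were small throughout the channel genes. The largest was 1.17-fold, the median over the 50 genes was 0.020 on the log2 scale, and the median over all 11791 genes was 0.0021. A gene was called higher or lower where its mean ratio reached 1.1-fold in size with the same sign on all 4 arrays. By this rule 4 of 50 channel genes (8%) were higher in the numerator pool, where 3.42% of all genes measured were, and 0 of 50 were lower, where 1.45% of all genes were. The 4 genes were Kcna6, Kcne1l, Scn8a and Kcnt1, 3 of them potassium channel genes and 1 a sodium channel gene. At 1.5-fold, a size reached by 0.0763% of all genes in the higher and 0.00848% in the lower direction, no channel gene was called. In the turned reading 0 channel genes were called in either direction, where 4.49% of all genes were higher in 152F7 and 2.39% lower.

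**Figure D1:**
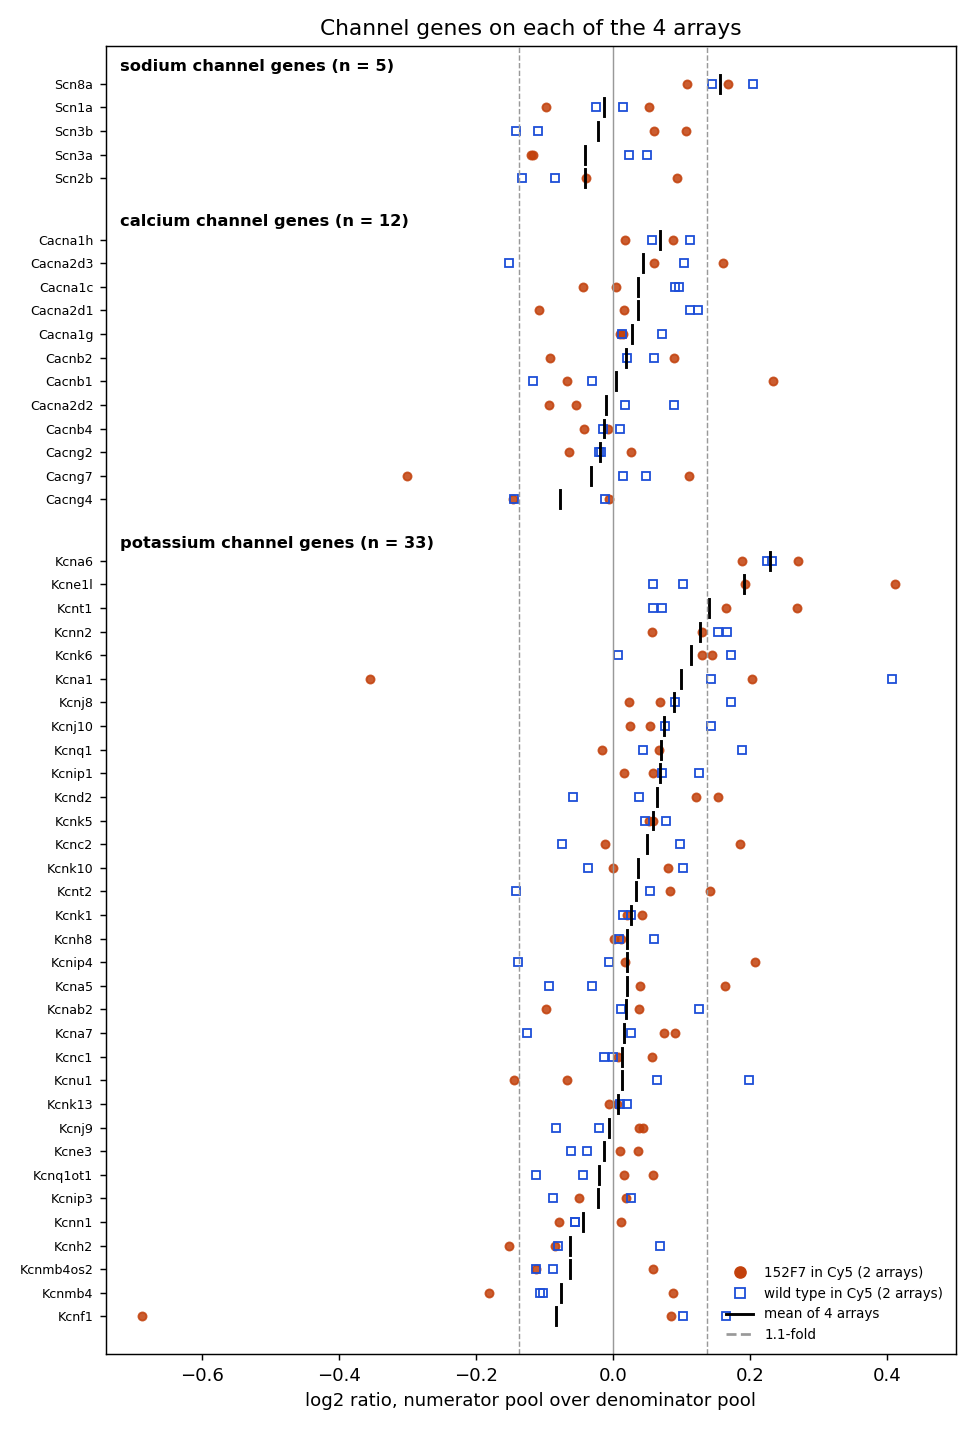
Log2 ratio of the numerator over the denominator pool (x axis) for each of the 50 channel genes (rows, by family and mean), with filled circles for the 2 arrays with 152F7 in Cy5, open squares for the 2 arrays with wild type in Cy5, bars for the mean of the 4 arrays and dashed lines at 1.1-fold. Kcna6 has all 4 arrays between 0.19 and 0.27, while Kcnf1 has 1 array at -0.69 and Kcna1 has 1 array at -0.35.

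The start-site windows of 3 of the 4 called genes are shown, since these genes passed the call rule. They come from the RefSeq table of build GRCm38.p6 and run 5′ to 3′ along the gene, from 250 bases before to 50 bases after a transcript's start. For Scn8a the window of the first of 2 listed starts is printed, and Kcnt1 had no entry there. Kcna6 lies on the minus strand at chr6:126740625-126740924, Kcne1l on the minus strand at chrX:142306149-142306448 and Scn8a on the plus strand at chr15:100870395-100870694. Capitals mark matches on either strand to any of 6 motifs. Of the general promoter elements, the TATA box was searched as TATAAA, the GC box that binds Sp1 was searched as GGGCGG and the CCAAT box by its name. The E-box of basic helix-loop-helix factors was searched as CACGTG. REST, a repressor of neuronal genes, binds an element called RE1, whose left half-site has the core CAGCACC, and whose right half-site was searched by the core GGACAGC.
Kcna6: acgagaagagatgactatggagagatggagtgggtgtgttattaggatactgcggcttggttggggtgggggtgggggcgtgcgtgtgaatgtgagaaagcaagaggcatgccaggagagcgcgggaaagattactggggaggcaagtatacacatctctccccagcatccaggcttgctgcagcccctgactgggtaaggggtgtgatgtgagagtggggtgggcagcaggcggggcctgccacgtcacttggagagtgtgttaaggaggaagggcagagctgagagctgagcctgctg
Scn8a: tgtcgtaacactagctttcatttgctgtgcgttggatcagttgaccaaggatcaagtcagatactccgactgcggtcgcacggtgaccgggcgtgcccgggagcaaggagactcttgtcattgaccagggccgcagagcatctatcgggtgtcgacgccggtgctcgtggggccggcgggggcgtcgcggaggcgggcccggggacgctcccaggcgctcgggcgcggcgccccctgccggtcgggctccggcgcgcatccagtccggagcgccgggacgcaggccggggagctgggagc
Kcne1l: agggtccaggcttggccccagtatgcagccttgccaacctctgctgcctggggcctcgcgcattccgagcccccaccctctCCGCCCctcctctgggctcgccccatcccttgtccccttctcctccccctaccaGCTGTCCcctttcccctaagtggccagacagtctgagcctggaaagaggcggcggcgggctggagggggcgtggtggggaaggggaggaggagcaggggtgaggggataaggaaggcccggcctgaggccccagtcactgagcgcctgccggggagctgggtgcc
The Kcne1l window held 1 GC box, 169 bases before the start, and 1 core of the right RE1 half-site, 115 bases before the start, and these did not overlap. The Kcna6 and Scn8a windows held none of the 6 motifs. Of the 59 windows of 39 measured channel genes, 42.4% held the GC box, 10.2% the right RE1 core and 8.47% the left RE1 core. Among all 32851 windows of the table, 35.7% held the GC box, 6.56% the right RE1 core and 7.14% the left RE1 core. The TATA box stood in 1 of the 59 windows, that of Kcnj9, and in 13.6% of all windows. The E-box stood in 1.69% of the 59 windows and in 7.15% of all windows, and the CCAAT box in 33.9% and 37.4%. The printed windows differed in CpG content, with 38 CpG in Scn8a, 12 in Kcne1l and 8 in Kcna6. The median was 10 CpG in the channel gene windows and 7 in all windows, at median shares of G and C bases of 59.3% and 52.7%. The second Scn8a window, which is not printed, had 12 CpG.

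Among the sodium channel genes, only Scn8a was called, and the other 4 had means below 0. Scn8a, which encodes Nav1.6, the main sodium channel of the axon initial segment and nodes of Ranvier in mature neurons, had 0.11 and 0.17 with 152F7 in Cy5, against 0.14 and 0.20 with wild type in Cy5. All 4 arrays were above 0, and its mean was 0.16 ± 0.041 (SD, n = 4 arrays), or 1.11-fold. A second Scn8a spot, with values on 2 arrays only, had 0.0030 with 152F7 in Cy5 (replicate 1) and -0.053 with wild type in Cy5 (replicate 2). The call thus rested on 1 spot, and the mean was 0.066, short of the 1.1-fold rule, when the second spot was averaged in. The first spot alone had -0.018 in the turned reading.

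Scn3a encodes Nav1.3, the sodium channel best known from embryonic and early postnatal brain. It had -0.12 and -0.12 with 152F7 in Cy5, against 0.023 and 0.050 with wild type in Cy5. On this spot the sign followed the dye orientation, and the mean of -0.041 ± 0.090 was smaller than its SD. A second Scn3a spot, with values on 3 arrays only, had 0.080 and -0.094 with 152F7 in Cy5, against -0.206 with wild type in Cy5 (replicate 1). Its sign did not follow the orientation, and with it averaged in the Scn3a mean was -0.074. Scn1a, which encodes Nav1.1 of inhibitory neurons, had 0.052 and -0.097 with 152F7 in Cy5, against 0.015 and -0.025 with wild type in Cy5, so its arrays lay on both sides of 0 in each orientation. The auxiliary beta subunit genes Scn2b and Scn3b had means of -0.041 ± 0.097 and -0.021 ± 0.12. The average of the 2 Scn3b spots split by orientation, with 0.11 and 0.060 for 152F7 in Cy5, against -0.11 and -0.14 for wild type in Cy5. The first spot had 0.27 and 0.22, against -0.21 and -0.22, while the other lay below 0 on all 4 arrays. Of the 10 sodium channel genes on the array, Scn2a, Scn7a, Scn9a, Scn10a and Scn11a had no spot with values on all 4 arrays.

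Among the 12 calcium channel genes none was called, and the median was 0.012. The 3 measured pore-forming alpha1 genes all had means above 0. Cacna1h, which encodes the T-type channel Cav3.2 that opens at low voltage, had 0.088 and 0.018 with 152F7 in Cy5, against 0.057 and 0.11 with wild type in Cy5. Its 4 arrays were above 0 and its mean of 0.069 ± 0.041 was the highest of the family. A second Cacna1h spot, with values on 2 arrays only, had 0.066 with 152F7 in Cy5 (replicate 1) and -0.021 with wild type in Cy5 (replicate 2). With that spot averaged in, the Cacna1h mean was 0.046. Cacna1g, which encodes the T-type channel Cav3.1, was also above 0 on all arrays (mean 0.028 ± 0.030), but its 2 spots had means of 0.091 and -0.036. Cacna1c, which encodes the L-type channel Cav1.2, had -0.043 and 0.0050 with 152F7 in Cy5, against 0.091 and 0.096 with wild type in Cy5, and a mean of 0.037 ± 0.068. A second Cacna1c spot, with values on 2 arrays only, had 0.069 with 152F7 in Cy5 (replicate 1) and -0.103 with wild type in Cy5 (replicate 1). With that spot averaged in, the Cacna1c mean was 0.010. The genes for the P/Q-, N- and R-type channels of nerve terminals, Cacna1a, Cacna1b and Cacna1e, had no spot with values on all 4 arrays.

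The auxiliary calcium channel genes lay near 0. The alpha2delta genes, whose products carry channels to the cell surface, had means of 0.043 ± 0.14 for Cacna2d3, 0.036 ± 0.11 for Cacna2d1 and -0.0098 ± 0.081 for Cacna2d2. The beta genes, whose products bind the alpha1 subunit inside the cell, lay between -0.014 for Cacnb4 and 0.020 for Cacnb2. The 3 measured gamma genes encode transmembrane AMPA receptor regulatory proteins, which serve glutamate receptors rather than calcium channels, and all 3 had means below 0, the nearest to it that of Cacng2 at -0.019 ± 0.037. Cacng4 had -0.0050 and -0.15 with 152F7 in Cy5, against -0.15 and -0.011 with wild type in Cy5. It was the only channel gene below 0 on all 4 arrays, at a mean of -0.077 ± 0.079, and in each orientation 1 array was close to 0. Cacng7 had -0.30 on 1 array with 152F7 in Cy5 and between 0.014 and 0.11 on the other 3, so that its mean of -0.032 ± 0.18 rested on that array.

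The potassium channel genes had the widest range, with 24 of 33 means (72.7%) above 0, where 51.5% of all genes were, and a median of 0.020. The measured genes of the Shaker, Shaw and Shal classes of voltage-gated channels all had means above 0, from 0.013 for Kcnc1 to 0.23 for Kcna6. The 2 Kcnc1 spots had means of -0.0125 and 0.039. With a further Kcnc1 spot, valued on 3 arrays, averaged in, the Kcnc1 mean was -0.016. Kcna6, which encodes the Shaker channel Kv1.6, had 0.27 and 0.19 with 152F7 in Cy5, against 0.23 and 0.23 with wild type in Cy5. No array was near 0 and the orientation means were the same to within 0.0010, at a mean of 0.23 ± 0.033, or 1.17-fold, which 0.823% of all genes exceeded. Kcna6 was called on the arrays of either orientation alone and without any 1 of the 4 arrays. Its only other spot had no value on any array, so the ratio rested on 1 spot, and it was 0.00050 in the turned reading.

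Kcna6 lies at chr6:126708328-126740834 beside the Shaker genes Kcna1 (chr6:126636463-126645801) and Kcna5 (chr6:126532551-126535555), at distances of 62.5 and 172.8 kb in build GRCm38.p6. Kcna1, which encodes Kv1.1 of axons, had 0.20 and -0.35 with 152F7 in Cy5, against 0.14 and 0.41 with wild type in Cy5. The array at -0.35 (152F7 in Cy5, replicate 2) set its mean of 0.10 ± 0.32, which was 0.24 without it and -0.039 without replicate 1 of the same orientation. Kcna5, which encodes Kv1.5, best known from heart and smooth muscle, had 0.16 and 0.040 with 152F7 in Cy5, against -0.094 and -0.030 with wild type in Cy5. It thus split by orientation at a mean of 0.020 ± 0.11, and the neighbours of Kcna6 did not share its even ratio. In the Shal class, Kcnd2, which encodes Kv4.2 of dendrites, had 2 spots with means of 0.11 and 0.019, and these split by orientation in opposite ways.

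Kcne1l encodes a single-span auxiliary subunit of the Kcne family and lies on the X chromosome, the only measured channel gene there. It had 0.19 and 0.41 with 152F7 in Cy5, against 0.059 and 0.10 with wild type in Cy5. All arrays were above 0, but the values were higher with 152F7 in Cy5, and the mean was 0.19 ± 0.16, or 1.14-fold. Without replicate 2 of 152F7 in Cy5 the mean was 0.137, just under the 1.1-fold line of 0.138. Over all 4 arrays the turned reading gave 0.11. The pools differed in Xist and in Y-linked RNA, whose part in the ratio of this X-linked gene was not tested. Kcne3, the other measured gene of the family among the chosen genes, had -0.013 ± 0.044. Kcne2, of the same family but left out of the choice by symbol, also had values on all 4 arrays. Its mean was 0.34 ± 0.058, or 1.26-fold.

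Kcnt1 encodes a potassium channel opened by sodium (Slack), and was the fourth gene called. It had 0.27 and 0.17 with 152F7 in Cy5, against 0.072 and 0.058 with wild type in Cy5, with a mean of 0.14 ± 0.097. The orientations did not overlap, and Kcnt1 lay just inside the 1.1-fold line. Leaving out replicate 1 of 152F7 in Cy5 gave a mean of 0.115, and 0.137 resulted without replicate 1 of wild type in Cy5, both outside it. Its 2 other spots had 3 values in all, of -0.048 for 152F7 in Cy5 (replicate 2), and of 0.013 (replicate 1) and 0.038 (replicate 2) for wild type in Cy5. With the spot that had a value in each orientation averaged in, the mean was 0.062. The spot measured on all 4 arrays had 0.076 in the turned reading.

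Kcnn2, which encodes the small-conductance calcium-activated channel SK2, lay just outside the 1.1-fold line and was measured on 10 spots, more than any other channel gene. It had 0.056 and 0.13 with 152F7 in Cy5, against 0.15 and 0.17 with wild type in Cy5, at a mean of 0.13 ± 0.049, or 1.09-fold. All 10 spots had means above 0, between 0.074 and 0.15. A further spot, with values on 3 arrays only, had 0.14 and 0.055 with 152F7 in Cy5, against 0.0010 with wild type in Cy5 (replicate 1). With that spot averaged in, the mean was 0.12. From the 10 spots, Kcnn2 was called higher without replicate 1 of 152F7 in Cy5. The spots carry the same transcript accession, and whether they hold the same probe is not known here. Kcnn1, which encodes SK1, had -0.044 ± 0.039, and Kcnu1, the pH-sensitive channel gene of sperm, had 0.013 ± 0.15 with the orientations on opposite sides of 0.

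**Figure D2:**
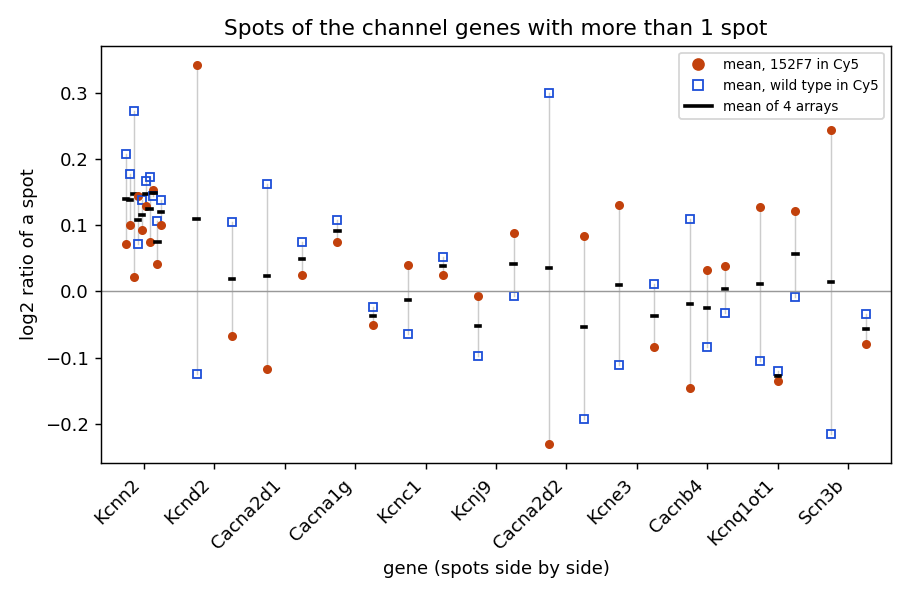
Log2 ratios (y axis) of the single spots of the 11 channel genes with more than 1 measured spot (x axis), with filled circles for the mean of the 2 arrays with 152F7 in Cy5, open squares for the mean of the 2 with wild type in Cy5, bars for the mean of the 4 arrays. The 10 Kcnn2 spots all have means above 0, while 8 of the 11 genes have spots with means on both sides of 0.

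The 5 two-pore channel genes, whose products carry the leak current that sets the resting potential, all had means above 0, from 0.0075 for Kcnk13 to 0.11 for Kcnk6. Kcnk6, which encodes TWIK-2, had 0.13 and 0.14 with 152F7 in Cy5, against 0.0080 and 0.17 with wild type in Cy5, and a mean of 0.11 ± 0.073. Kcnk5, which encodes TASK-2, had the closest arrays of any channel gene with a mean above 0.05. Its values were 0.058 and 0.053 with 152F7 in Cy5, against 0.047 and 0.077 with wild type in Cy5, at a mean of 0.059 ± 0.013. Kcnk1, which encodes TWIK-1, was likewise above 0 on every array, at 0.026 ± 0.012. These ratios were even between arrays but small, with 1.04-fold for Kcnk5 and 1.02-fold for Kcnk1.

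Of the inward rectifier genes 3 of 14 were measured. Kcnj8, which encodes the pore of an ATP-sensitive channel and is a marker of brain pericytes, had 0.069 and 0.024 with 152F7 in Cy5, against 0.090 and 0.17 with wild type in Cy5. Kcnj10, which encodes the glial channel Kir4.1, had 0.054 and 0.025, against 0.14 and 0.076. Both were above 0 on all arrays, at means of 0.089 ± 0.062 and 0.074 ± 0.050, and both were higher with wild type in Cy5. A second Kcnj8 spot had -0.047 and 0.024 with 152F7 in Cy5, against -0.056 on 1 array with wild type in Cy5, and with it averaged in the mean was 0.028. Kcnj9, which lies 11.9 kb from Kcnj10 on chromosome 1 and encodes the G protein-gated channel GIRK3, had -0.0054 ± 0.060. The potassium channel genes of the human Down syndrome chromosome include Kcnj6, Kcnj15, Kcne1 and Kcne2. Kcnj6 and Kcne1 had 1 value each, 0.014 and -0.043, and Kcnj15 had none, so these 3 could not be compared. Kcne2, which is not among the 50 genes by the rule, had 0.36 and 0.41 with 152F7 in Cy5, against 0.28 and 0.30 with wild type in Cy5.

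The remaining potassium channel genes lay on both sides of 0. Kcnq1, which encodes Kv7.1 of heart and epithelia, had a mean of 0.071 ± 0.086, and Kcnip1, a calcium sensor that binds Shal channels, had 0.068 ± 0.045 with all 4 arrays above 0. Kcnh2, which encodes the Erg channel of cardiac repolarisation, had -0.062 ± 0.093, and Kcnh8 of the same class had 0.021 ± 0.027. Kcnip3, another calcium sensor of Shal channels, had -0.022 ± 0.055, and Kcnab2, a Kv beta subunit gene, had 0.020 ± 0.092. The lowest mean of all was that of Kcnf1, which encodes Kv5.1, a subunit that makes no channel by itself. Kcnf1 had -0.69 and 0.085 with 152F7 in Cy5, against 0.17 and 0.10 with wild type in Cy5. Its mean of -0.084 ± 0.40 came from the array at -0.69, and it was 0.11 without that array.

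Symbols chosen by name also brought in 2 non-coding RNAs that make no channel. Kcnq1ot1, an imprinted antisense RNA that starts within Kcnq1, had -0.020 ± 0.074 over 3 spots with means from -0.13 to 0.056. Kcnmb4os2 shares 697 bases with one end of Kcnmb4, the neuronal beta subunit gene of the large-conductance calcium-activated channel, on chromosome 10. Kcnmb4os2 had -0.11 and 0.058 with 152F7 in Cy5, against -0.11 and -0.087 with wild type in Cy5. Kcnmb4 had -0.18 and 0.087, against -0.11 and -0.10. Both spots thus lay below 0 on the same 3 arrays and above 0 on the same 1, and the strand that each probe reads was not analysed here.

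Across the 50 genes the median lay above 0 on each array, but the values of single genes varied between arrays. The 14 genes above 0 on all 4 arrays made up 28% of the channel genes, where 12.8% of all genes were, and the 1 gene below 0 on all arrays made up 2%, where 9.86% of all genes were. No test was made of these shares. The median over the channel genes was 0.048 and 0.021 on the arrays with 152F7 in Cy5, against 0.017 and 0.047 with wild type in Cy5, so it was above 0 on each. The median over all genes was 0.022 and 0.015 with 152F7 in Cy5, against -0.012 and -0.010 with wild type in Cy5. In 13 of 50 genes (26%) the mean was larger than its SD over the arrays, where this held for 24.5% of all genes. That SD includes the difference between the orientations. Set against the SD within orientations, the mean was larger in 15 of 50 channel genes and in 5055 of all 11791 genes. Over the 50 genes, the pair of arrays with 152F7 in Cy5 correlated at 0.089 and the pair with wild type in Cy5 at 0.57 (Pearson, across genes that share arrays and pools). The means of the orientations correlated at 0.0075. Over all 11791 genes these correlations were 0.63 with 152F7 in Cy5, 0.74 with wild type in Cy5 and 0.069 between the orientation means.

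**Figure D3:**
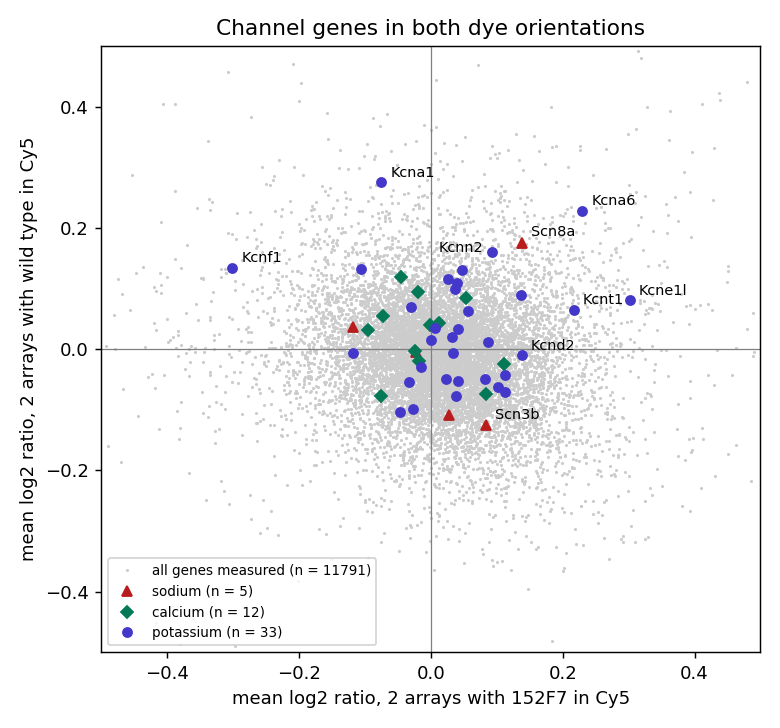
Mean log2 ratio on the 2 arrays with 152F7 in Cy5 (x axis) and on the other 2, with wild type in Cy5 (y axis) for sodium (triangles), calcium (diamonds) and potassium (circles) channel genes over all 11791 genes measured (grey, 57 of them outside the window). Kcna6 and Scn8a lie near the diagonal, Kcne1l and Kcnt1 lie further to the right, and the rest are spread over all 4 quadrants.

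**Figure D4:**
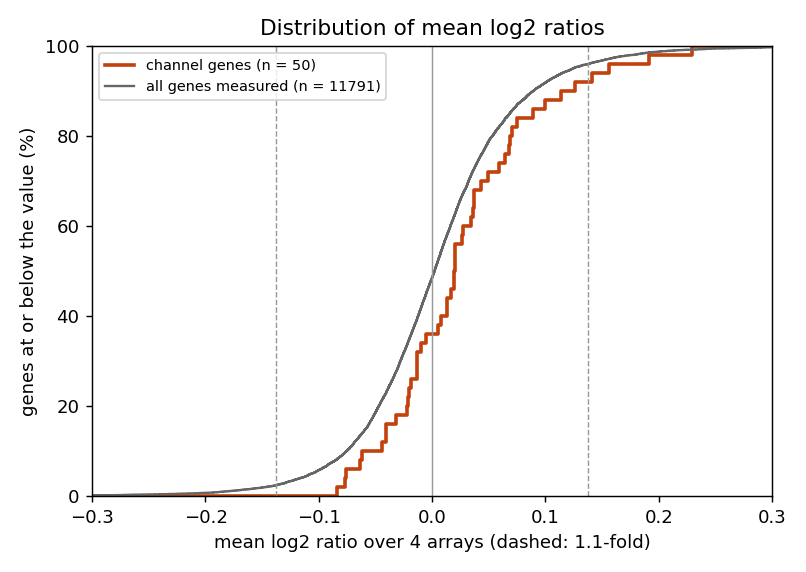
Percent of genes (y axis) with a mean log2 ratio at or below the value on the x axis, for the 50 channel genes and for all 11791 genes, with dashed lines at 1.1-fold. The curve of the channel genes runs slightly to the right, with medians of 0.020 for the channel genes and 0.0021 for all genes, and ends at 0.23.

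Many channel genes could not be measured. Of 118 channel symbols on the array, 50 (42.4%) had a spot with values on all 4 arrays, against 11791 of 19087 of all symbols (61.8%). The share differed between subfamilies: all 3 calcium beta genes, 3 of 4 alpha2delta genes and 3 of 4 Kv-interacting protein genes were measured, but 3 of 10 calcium alpha1 genes, 3 of 14 inward rectifiers and 1 of 9 silent Kv subunit genes. Of the 68 genes not measured, 18 had no value on any array and 50 had values on 1 to 3 arrays at most. Those 50 genes had 112 values, with a median of 0.0030 and a range from -1.24, for Cacna1e on 1 array, to 0.18. The rule by which values were left blank is not given in the sources used here, and no intensities were used, so low expression was not established for any of these genes.

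**Figure D5:**
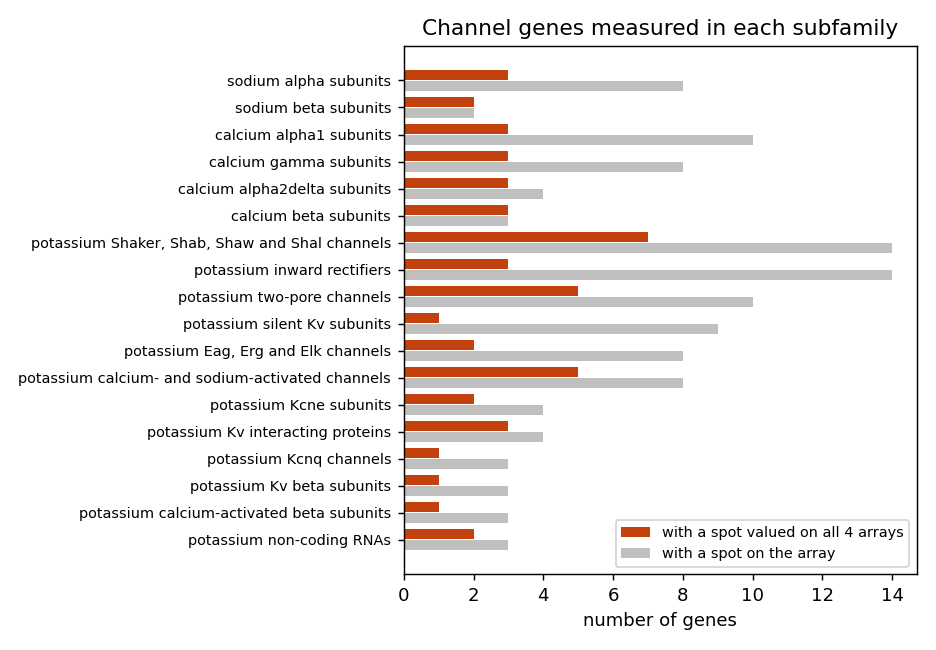
Number of genes (x axis) in each channel subfamily (rows) that had a spot valued on all 4 arrays (dark bars) and that had any spot on the array (light bars). The inward rectifiers have 3 of 14 genes measured and the calcium beta subunits 3 of 3.

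Other genes of excitable membranes were counted by the same rule. Of 42 listed partners of these channels (HCN channels, FGF-homologous factors, ankyrins, ion pumps, chloride transporters and calcium stores) 31 were measured, of which 2 were called higher and 0 lower, where 3.42% and 1.45% of all genes were, with a median of 0.032. The called genes were Ank3, which encodes ankyrin-G, the anchor of sodium channels at the axon initial segment, at 0.18 ± 0.12, and Slc12a5, which encodes the neuronal potassium-chloride cotransporter KCC2, at 0.14 ± 0.059. Fgf13 and Dpp6, which encode modulators of sodium and Shal channels, had 0.12 ± 0.19 and 0.12 ± 0.075 and were not called. Rest had -0.018 ± 0.059.

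Markers of several cell types also differed between the pools. By the same rule 3.42% of all genes were higher and 1.45% lower. Of 10 neuron markers 2 were higher and 0 lower, with a median of 0.061 and a range from -0.026 for Stmn2 to 0.33 for Nefm, and of 8 radial glia markers 0 were called in either direction, with a median of 0.0086. The medians of the other cell types were larger, at 0.50 for lens (4 of 5 higher), 0.25 for mesenchyme and pericytes (4 of 6 higher and 1 lower), 0.21 for red cells (3 of 4 higher), 0.20 for choroid plexus (2 of 4 higher), 0.10 for muscle (0 of 3 called) and 0.092 for endothelium (1 of 4 higher). Kcne2, which is not among the 50, belongs to the choroid plexus list. Of the listed markers, only 3 of 7 for muscle, 4 of 5 for red cells and 4 of 5 for endothelium were measured. The part of any of the cell types in the ratios of the channel genes was not tested.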

How the data were processed

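Per the labels' protocols, total RNA (Trizol) of both telencephalon pools was amplified linearly from 1 ug and carried Cy5 or Cy3. The authors deposited 1 log ratio per spot and array for 44290 spots, treated here as log2. How the arrays were scanned, corrected and normalized, the base and direction of the ratio, and the rule for blank values: not given in the sources used here. Values were present for 53.7% to 65.3% of spots, array medians lay between -0.0070 and 0.0070, and signal over background is unknown. The arrays give the technical spread only, and with 1 pool per genotype the spread between embryos and pools was not measured.

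Spots were named through the platform annotation, and all 50 channel genes were found by Entrez identifier in the RefSeq table of GRCm38.p6. Each gene was given the mean of its spots with values on all 4 arrays with the SD over arrays as its error. Since the arrays are labelled as technical replicates of pooled RNA, each genotype counts as 1 pool and no test was run. The reading of the ratios as running one way rested on Xist and Y-linked genes, and on the spots of a gene: over 4352 genes the first 2 spots correlated at 0.421 in the unturned and 0.0973 in the turned mean (Pearson, across genes).

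A call needed a mean of at least 1.1-fold and 1 sign on all 4 arrays. Named were the genes called, the highest and lowest of each subfamily, the sodium and calcium pore genes, genes split by orientation or with spots of opposite sign, genes of the Down syndrome region and non-coding RNAs. Other names, such as Kcnn2, Kcna1, Kcnk5 and Kcnj10, and the added alternative of coding genes only, were chosen after the values were seen. Members and lists were chosen with earlier results of these data known. Python 3.11.15, pandas 2.3.3 and numpy 2.4.6 were used. Alternatives were the turned reading, each orientation alone, each array left out, other filters and spot summaries, centring, natural logs and no sign demand.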

Additional observations from a re-analysis of the deposited data

Results flagged for a closer look

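Of the 50 channel genes, 9 (18%) had both arrays of one dye orientation above 0 and both arrays of the other below 0, where 30.8% of all genes did. Whether the orientations differed was not tested for these genes. The difference of means, arrays with 152F7 in Cy5 minus those where wild type had Cy5, was above 0 for Scn3b at 0.21, Kcnip4 at 0.18, Kcna5 at 0.16, Kcnq1ot1 at 0.12, Kcnj9 at 0.093 and Kcne3 at 0.073. It was below 0 for Kcnu1 at -0.24, Scn3a at -0.15 and Cacna2d2 at -0.13. In the turned reading the ratio of 152F7 over wild type is this difference divided by the number of orientations, which gives 0.10 for Scn3b and -0.12 for Kcnu1. Of these genes Cacna2d2, Kcne3, Kcnj9, Kcnq1ot1 and Scn3b had 2 or 3 spots each with values on all 4 arrays, with means on both sides of 0. The other 4 had 1 such spot. The Cacna2d2 spots split in opposite ways. The first had -0.22 and -0.24 with 152F7 in Cy5, against 0.21 and 0.395 with wild type in Cy5. The second had 0.11 and 0.055, against -0.17 and -0.22. In Kcne3, Kcnq1ot1 and Scn3b not every spot split by orientation, and no Kcnj9 spot did.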

How the results depend on the processing

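The count of 4 higher channel genes was 0 in the turned reading, where 4.49% of all genes were higher. It was 2 (Kcna6 and Kcne1l) of 75 channel genes when spots with a value on at least 1 array of each orientation were used. In that setting 2.63% of all genes were higher. Kcna6 and Kcne1l gained no spot there and could not change, while Scn8a and Kcnt1 each gained 1 and, at 0.066 and 0.062, were no longer called. The count was between 3 and 6 in the other settings. The 3 were of 30 channel genes, without the 25% of spots with the largest SD, where 3.87% of all genes were higher. The count was 5 with 152F7 in Cy5 alone, where 12.3% of all genes were higher, and 4 with wild type in Cy5 alone, where 6.29% were. The share of channel genes was thus below that of all genes with 152F7 in Cy5 and above it with wild type in Cy5. The count of lower genes was 0 in either orientation alone, where 6.79% (152F7 in Cy5) and 8.07% (wild type in Cy5) of all genes were lower. It was 1 with those added spots (Cacng2, from a spot with -1.11 on 1 array), where 1.53% of all genes were lower. Without replicate 2 of 152F7 in Cy5 it was also 1 (Kcnmb4), where 2.26% were, and it was 0 in every other setting. The higher count was 4 without any 1 of the arrays, where between 3.64% and 3.9% of all genes were higher. Of the genes called, only Kcna6 and Scn8a were in all 4 of those sets. The median was 0.00037 in the turned reading, where that of all genes was 0.0145 and thus higher, 0.0049 without replicate 1 of 152F7 in Cy5, 0.0070 without replicate 2 of wild type in Cy5, and at most 0.029 in any setting. In the turned reading Scn8a had -0.018, and 28 of 50 gene means changed sign. Natural logs gave 6 higher genes, with Kcnn2 and Kcnk6 added, where 6.47% of all genes were higher. No paired analysis was possible because the arrays are technical replicates of 1 pool per genotype and no result came from a test.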
